A study of Homo sapiens with 4 samples.

Results

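In HAP1 cells, 202 MYC peaks had their summit in an exon of an annotated pseudogene and shared no base with an H3K27ac peak. They were 11.7% of all 1723 MYC peaks and 21.5% (exact Clopper-Pearson 95% interval 18.9% to 24.3%) of the 939 MYC peaks without H3K27ac. The peaks were chosen on these measured features, so that their occupancy of pseudogenes and their lack of H3K27ac describe how they were found and are not results. They lay in 187 pseudogenes, or 1.21% of the 15399 in the annotation. Among the 784 MYC peaks with H3K27ac, 13 (1.66%, 0.886% to 2.82%) had their summit in a pseudogene exon.

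HAP1, which the study calls haploid, is an established human line that comes from KBM-7, a near-haploid line of chronic myelogenous leukemia. Chromatin of unedited HAP1 cells was precipitated with antibodies against MYC and against H3K27ac, the acetylated lysine of histone H3 found at active regulatory DNA, with normal rabbit IgG and input DNA as controls. MYC peaks were called over input and H3K27ac peaks over IgG, with 1 library each, so that no value below has a replicate error and none was tested between groups. Intervals cover counting error over peaks, pseudogenes or genes only, and the peak lists carry no read depth.

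A processed pseudogene is a copy of a spliced mRNA that the enzymes of LINE-1 retrotransposons have reverse transcribed and inserted elsewhere in the genome. It therefore lacks the introns and the promoter of its parent gene, and genes with abundant mRNAs, such as those for ribosomal proteins, have many such copies. MYC binds DNA with MAX at E-boxes, of which CACGTG is the canonical form, and is known for binding the promoters of genes for ribosomal proteins, translation factors and other growth functions.

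The sequences at the highest peaks show what kind of locus was called. The following GRCh37 sequences run from 100 bases before to 100 bases after the summits of 3 of the 4 members with the highest fold enrichment, read along the strand of the pseudogene. Capitals mark the bases on both sides of each point where an intron interrupts the aligned parent gene, and the pseudogene runs through these points without a break. The windows are chr13:22202625-22202825, chr6:39926223-39926423 and chr10:32391440-32391640, in the order given.
RPS7P10: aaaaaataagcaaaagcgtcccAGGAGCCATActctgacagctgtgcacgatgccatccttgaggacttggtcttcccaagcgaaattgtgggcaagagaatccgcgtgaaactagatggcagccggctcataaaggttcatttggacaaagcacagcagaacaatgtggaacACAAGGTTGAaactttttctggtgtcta
ENSG00000180211: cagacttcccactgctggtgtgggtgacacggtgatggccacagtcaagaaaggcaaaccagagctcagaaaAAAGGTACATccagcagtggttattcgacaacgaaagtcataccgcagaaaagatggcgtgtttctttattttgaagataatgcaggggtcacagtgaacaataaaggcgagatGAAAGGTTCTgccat
RPS4XP11: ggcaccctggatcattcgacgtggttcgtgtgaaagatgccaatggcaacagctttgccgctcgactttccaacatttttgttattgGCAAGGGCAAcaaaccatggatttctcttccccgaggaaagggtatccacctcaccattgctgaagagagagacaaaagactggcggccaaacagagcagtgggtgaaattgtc

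RPS7P10, a copy of the mRNA for a 40S ribosomal protein, held the highest peak of the set. Its peak on chromosome 13 (22202629 to 22202840) had a fold enrichment of 17.7 over input at the summit and a −log10 q of 33.3. The parent RPS7 itself had no MYC peak, neither at its promoter nor in its exons. The copy ENSG00000180211 followed with 16.4. It aligned to the mRNA of RPL23, a 60S ribosomal protein, at 95.5% identity, and its peak spanned 39926187 to 39926448 on chromosome 6. RPL12P4 on chromosome 20 and RPS4XP11 on chromosome 10 reached 15.5 and 15.1. Thus the windows printed above all came from copies of ribosomal protein mRNAs.

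Of the next 8 by fold enrichment, 6 were also copies of ribosomal protein mRNAs. EIF4A1P2, a copy of the gene for an RNA helicase of translation initiation in an intron of PCDH11Y, had a value of 14.8. NPM1P27, in an intron of FAM172A, also had 14.8, and its parent NPM1 codes for the nucleolar protein nucleophosmin. The ribosomal protein copies RPL7P1, in an intron of CSF1R, and RPL9P7, in an intron of APOO, had 14.2 and 14.1. RPL5P34, RPS27AP5, RPL23AP42 and RPS15P4 followed with 13.6, 13.2, 12.9 and 12.3. All 12 of these highest members lay in processed pseudogenes, and for 10 of them the parent had a MYC summit within 1000 bp of one of its annotated transcription start sites (TSSs). RPS7 and RPL7 were the parents without one, and the peak of RPS4X lay in its coding exons, near a TSS other than the canonical one. EIF4A1P2 was the only member on the Y chromosome, and 9 other places matched its summit window at 90% identity or more. Another EIF4A1 copy, EIF4A1P10 in an intron of PCDH11X on the X chromosome, was also a member (6.96). How far the 2 peaks share reads was not tested.

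Over the 202 members the fold enrichment had a median of 7.05 (quartiles 5.34 and 8.71, range 2.12 to 17.7). The medians of the other MYC peaks were 5.64 for the 784 with H3K27ac, 5.79 for the 307 in later exons of protein-coding genes without H3K27ac, and 4.52 for the remaining 430. The members therefore had the highest median of these classes, although the single highest MYC peaks, up to 34.2, carried H3K27ac. A −log10 q of at least 10 was reached by 106 members (52.5%, 45.3% to 59.5%), against 32.9% (29.6% to 36.3%) of the peaks with H3K27ac. The share was 20.5% (16.1% to 25.5%) for the peaks in later exons and 37.2% (32.6% to 42.0%) for the remaining 430. The weakest calls were in NDUFV2P1, ANP32BP1 and BTF3P10, at a −log10 q of 1.52, 1.63 and 1.74. Member peaks had a median width of 264 bp (155 to 1525), and 166 of them (82.2%) lay wholly within the exons of their pseudogene.

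Processed pseudogenes held 196 of the members (97.0%, 93.6% to 98.9%), of which 16 were annotated as transcribed. Processed types make up 68.8% of all annotated pseudogenes. Unprocessed pseudogenes, which arise by duplication of a gene or of other genomic DNA, held 3 members, and 3 more lay in entries with no type beyond pseudogene. Of the unprocessed members, 2 were in HNRNPLP2, at 5.32 and 3.59. Around these summits the HNRNPL sequence ran without a break across 2 and 3 splice junctions of HNRNPL, as in the processed copies. The third was MTCO1P12 on chromosome 1, a nuclear copy of the mitochondrial gene MT-CO1, which had the lowest fold enrichment of all members (2.12). The entries without a further type were RPL9P8, RPL9P9 and CTD-2328D6.1.

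**Figure D1:**
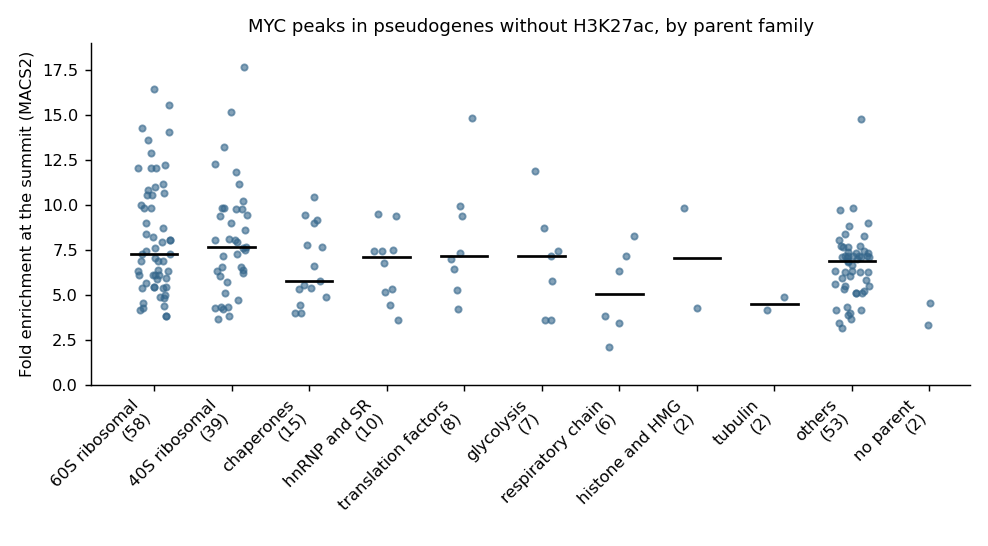
Fold enrichment at the summit over input (vertical axis, ratio given by MACS2) for each of the 202 members, grouped by the family of the parent gene, with the number of members in brackets and a bar at the family median. Members above 12 were mostly copies of ribosomal protein mRNAs, with single copies of EIF4A1 and NPM1 among them.

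A parent gene was found for 200 members (99.0%) by alignment of the pseudogene exons to spliced protein-coding mRNAs, with a median identity of 97.1%. They traced back to 147 parents, of which 146 are nuclear. Where the symbol of the pseudogene names a parent, the alignment gave the same gene for 156 of 157 members. The exception was SETP14, which aligned best to SETSIP, itself a single-exon copy of SET. The 2 members without a parent were ENSG00000256664, whose summit also lies in an exon of MDM2, and CTD-2328D6.1.

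Ribosomal proteins were the largest group of parents. Copies of 60S (RPL) mRNAs held 58 members and copies of 40S (RPS) mRNAs 39, together 97 (48.0%, 41.0% to 55.1%). Of the 1254 annotated pseudogenes that aligned to RPL mRNAs, 55 carried a member (4.39%, 3.32% to 5.67%), and of the 654 that aligned to RPS mRNAs, 38 did (5.81%, 4.14% to 7.89%). These shares stood above the 1.21% of all pseudogenes given at the outset. That share also counts pseudogenes that aligned to no parent, which the family shares leave out, so the bases are unlike. Of the 10587 processed pseudogenes in the annotation, 182 carried a member. The median fold enrichments were 7.26 for RPL and 7.67 for RPS copies.

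Other families of housekeeping genes followed with smaller numbers. Copies of mRNAs for chaperones, which fold other proteins, held 15 members in 9 pseudogenes, led by HSPA8P1 (10.4), HSPD1P1 (9.45) and HSPE1P2 (9.16). Copies of hnRNP and SR splicing factors held 10, with HNRNPA1P10 (9.49) and HNRNPDP1 (9.34) at the top. Translation factors gave 8 members, among them EEF1B2P6 (9.92) and EEF1A1P11 (9.35), whose parents code for subunits of elongation factor eEF1. Glycolysis gave 7, with GAPDHP1 (11.8), LDHBP2 (8.71) and 1 of the pair of peaks in ENO1P1 (7.44) as the highest. The share of each family's pseudogenes that carried a member was 3.91% for chaperones, 4.90% for splicing factors, 4.76% for translation factors and 6.12% for glycolysis. The intervals of these 4 shares overlapped one another and those of the ribosomal families.

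Smaller numbers came from the respiratory chain, chromatin proteins and tubulins. Respiratory chain mRNAs had 273 pseudogenes, of which 6 (2.198%, 0.811% to 4.72%) carried a member, at 2.12 to 8.24. For histone and HMG mRNAs the count was 2 of 206 (0.971%, 0.118% to 3.46%), namely HMGN2P5 (9.84) and HMGB1P6 (4.29). For tubulins it was 2 of 48 (4.17%, 0.509% to 14.3%), namely TUBAP2 (4.84) and TUBBP1 (4.16), and no actin copy was among the members. These 3 intervals are wide and overlap those of the chaperone and RPL families. The remaining 53 members came from 47 parents. Of the 7107 pseudogenes that aligned to any gene outside the named families, 52 carried a member (0.732%, 0.547% to 0.958%). They included copies of YBX1, an RNA-binding protein (YBX1P10, 9.79), the histone chaperone NASP (NASPP1, 9.70), the nucleoside diphosphate kinase NME2 (NME2P1, 9.001) and the pluripotency factor POU5F1 (POU5F1P4, 7.40).

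**Figure D2:**
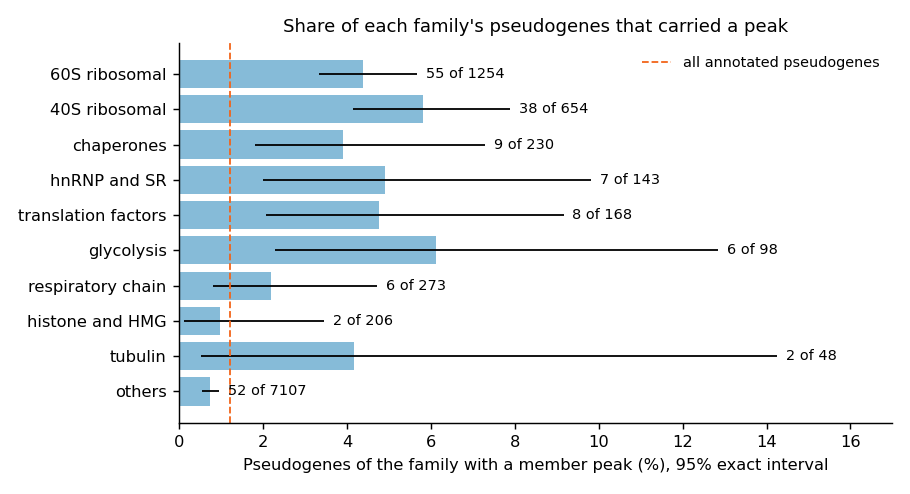
Percent of the annotated pseudogenes aligned to each parent family that carried a member peak (horizontal axis), with exact 95% intervals and the counts, and a dashed line at the 1.21% of all annotated pseudogenes. The line also counts pseudogenes that aligned to no parent, which the bars leave out. The ribosomal, splicing, translation, glycolysis and chaperone families lay at 3.91% to 6.12%, and the pseudogenes aligned to any other gene at 0.732%.

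Most parents had a MYC peak of their own at the promoter. A MYC summit lay within 1000 bp of a TSS for 92 of the 146 nuclear parents (63.0%, 54.6% to 70.8%), against 4.2% of all 20163 protein-coding genes. For 82 of these 92 (89.1%) at least 1 such peak overlapped H3K27ac. The summit was within 1000 bp of the canonical TSS for 80 of the 92. For 10 of the other 12 the peaks lay in exons of the canonical mRNA, without H3K27ac, and counted only because another TSS is annotated nearby. They were C1QBP, HNRNPC, HSP90AA1, HSPA8, RPS20, RPS4X, SLC25A3, SLC25A5, TPI1 and UBE2E3. An H3K27ac summit stood at the promoter of 144 parents (98.6%), and of 68.4% of all protein-coding genes. The highest promoter peak was that of NPM1 (19.6), followed by RPS19 (15.1), NME2 (14.3) and RPL23 (13.4). With the highest such peak of each of the 92 parents, the median was 7.22, beside 7.05 over all member peaks. For some parents besides the 10 named, such as HNRNPA1, EEF1A1 and RPL4, this highest peak also lay in an exon, without H3K27ac. Among genes with an H3K27ac summit at the promoter, a MYC peak was present for 92 of 144 parents (63.9%, 55.5% to 71.7%) and for 6.05% (5.66% to 6.46%) of all 13787 such protein-coding genes.

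The share differed between families. It was 34 of 38 for RPL parents and 22 of 27 for RPS parents. Among the RPL and RPS genes, the count was 56 of 65 for those with a member pseudogene and 12 of 22 for the others, a difference that was not tested. For chaperones it was 6 of 8, for splicing factors 4 of 6, for translation factors 3 of 5 and for glycolysis 3 of 6. None of the 5 nuclear respiratory chain parents and neither tubulin parent had one. For the parents outside the named families the count was 19 of 47. With the canonical TSS alone the counts were 34 for RPL, 20 for RPS, 4 for chaperones, 3 for splicing factors, 3 for translation factors, 2 for glycolysis and 14 for the parents outside, and the RPL and RPS parents stood at 54 of 65 against the same 12 of 22. The RPL and RPS genes, 53 and 34 of them, were taken by symbol. This also admits related genes with a suffix such as L or Y. The 22 others may include some of these, and they were not set apart. By member, the promoter of the parent carried a MYC peak in 135 of 199 cases (67.8%).

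A second class of MYC peaks lay inside the parents. A summit in an exon more than 1000 bp from any TSS of the gene was found for 52 of the 146 parents (35.6%, 27.9% to 43.96%), against 1.51% of all protein-coding genes. By these distances, both kinds of peak occurred in 29 parents, only the peak near a TSS in 63, only the distant exon peak in 23 and neither in 31. The 63 include exon peaks near an alternative TSS, such as those of TPI1, SLC25A5 and UBE2E3 in the 3′ UTR of the canonical mRNA. The families were ordered differently here. Chaperone parents had an exon peak in 7 of 8 cases, glycolysis parents in 5 of 6 and both tubulin parents had one, while RPL parents had it in 5 of 38 and RPS parents in 2 of 27. When every exon but the first of each transcript was counted, the last 2 became 8 of 38 and 6 of 27, and chaperones stayed at 7 of 8. Of their mRNAs, a median of 47.3% (RPL) and 38.2% (RPS) of the bases lay at this distance from a TSS, against 63.2% over all 146 parents, and the part of this in the counts was not tested. The highest of these peaks were in YBX1 (13.7), HSP90AA1 (12.9) and HSPD1 (12.5).

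The 31 parents with neither kind of peak held 39 members at a median fold enrichment of 6.54 (3.44 to 17.7), against 7.26 for the 89 members whose parents had a peak near a TSS only. Besides RPS7 and RPL7, they included RPL21, RPL19, RPS13, RPS27 among the genes for ribosomal proteins, FAU, whose ribosomal product is fused to a ubiquitin-like protein and which was grouped by symbol outside the RPL and RPS families, the respiratory chain genes NDUFV2, NDUFB4, COX5A and ATP5MK, and HNRNPL, HSPE1 and NASP. No MYC summit was called near a TSS or in an exon of these genes, and introns were not searched.

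The parents' own exon peaks were set beside the member summits on the canonical mRNAs. On the canonical transcripts, 64 exon peaks more than 1000 bp from a TSS could be placed, 43 (67.2%) of them in the 3′ UTR and 21 (32.8%) in the coding sequence. These shares are near those of all mRNA positions of the parents at that distance, of which 72.8% are in the 3′ UTR and 27.1% in the coding sequence, whereas the annotated copies align mainly to the coding sequence. In 1 of the 64 did a member summit map within 100 bases, 41 bases away on the RPS6 mRNA. Exon peaks nearer to a TSS are not in this count, and of these the peak in RPS24 lay 56 bases from a member summit. The mRNA window of 100 bases on either side of the summit contained a splice junction, at least 10 bases from both of its ends, for 3 of the 64 (4.69%, 0.977% to 13.1%), those in HSPD1, LDHB and RPS6. Over all mRNA positions of the parents at that distance from a TSS, 22.6% of windows contain one. Of the 64 peaks, 60 lay wholly within 1 exon of the canonical transcript. Among the exon peaks without H3K27ac nearer to a TSS, some windows contained a junction, as in RPS20 and RPL6. Others, as in TPI1 and HSPA8, did not.

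The member summits lay somewhat nearer to former exon borders than the aligned positions of the same pseudogenes as a whole, most of which are themselves close to one. A place on the parent mRNA was found for 199 of them, and 198 of these were in the part that corresponds to the coding sequence, where 97.4% of all aligned positions lie. The same kind of window, taken on the pseudogene, spanned at least 1 former splice junction for 191 (96.0%, 92.2% to 98.2%), against 84.3% of all aligned positions of the same pseudogenes. It spanned 1 junction for 92 members, 2 for 87 and 3 for 12. With 50 bases on either side the share was 66.8% (59.8% to 73.3%), against 52.9% of positions. The median distance from the summit to the nearest junction was 29 bases, and 35 bases over all positions. The positions were pooled, so that longer copies count for more, and they include the ends of the alignments, where windows are cut short. The part of this in the differences was not tested. The 8 members without a junction included MTCO1P12 and SETP14, whose aligned parents have a single exon, and EEF1A1P11, the only summit in a 3′ UTR.

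**Figure D3:**
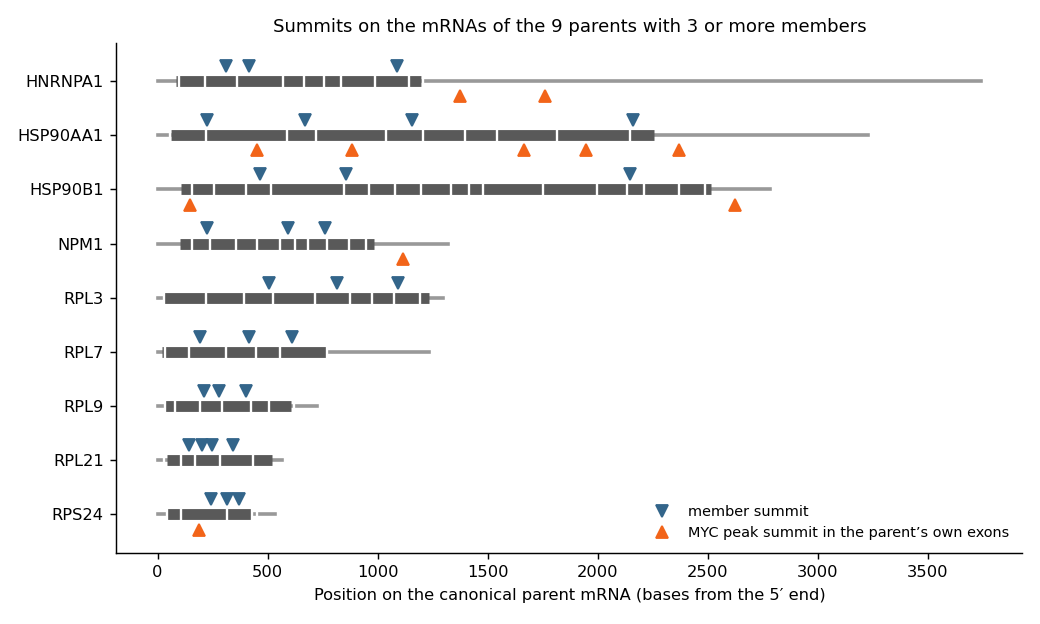
Positions on the canonical mRNA (horizontal axis, bases from the 5′ end) of the 9 parents with 3 or more members, with the coding sequence as a thick bar and splice junctions as white ticks. Member summits mapped from the pseudogenes (blue, above) and summits of MYC peaks in the parents' own exons, those near a TSS included (orange, below), interleave on HSP90AA1, and no pair of the 2 kinds coincides.

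HSP90AA1, the gene for the inducible cytosolic HSP90 chaperone, showed the arrangement most fully. Its copy HSP90AA2P on chromosome 11 held 4 members, at 7.67, 8.99, 5.35 and 7.76 in order from the 5′ end, at bases 227, 671, 1155 and 2161 of the mRNA. The gene itself held 5 MYC peaks in its exons, at bases 451, 886, 1668, 1947 and 2368, each of them at least 207 bases from the nearest member summit. None of the 5 windows contained a junction that met the criterion, whereas each of the 4 member windows did. HSP90B2P, the copy of the endoplasmic reticulum chaperone HSP90B1, held 3 members at 4.85, 5.79 and 4.01. A further 10 pseudogenes held 2 members each, among them ENO1P1, RPL3P7, RPL7AP6, RPS3AP6 and XRCC6P2.

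RPL21 reached the same number of members through 4 different copies. RPL21P16 (8.01), RPL21P119 (8.39), RPL21P75 (7.57) and RPL21P53 (4.87) had their summits between bases 142 and 343 of the mRNA, in that order from the 5′ end. They are 99.2% to 100% identical to it, and 78 to 95 other places in the genome match their windows. The 3 RPL9 members are a like case. RPL9P7 (14.1), RPL9P8 (8.96) and RPL9P9 (6.12) are 99.7% to 99.8% identical to RPL9 and share an identical window with at least 1 other place each. The RPL7, RPL3, RPS24, NPM1 and HNRNPA1 members, 3 for each parent, came from 2 or 3 copies of the mRNA.

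Along the pseudogenes few summits lay near the 5′ end. The median position was 62.2% of the exonic length from the 5′ end (quartiles 42.1% and 75.5%). From the 5′ to the 3′ end, successive steps of 20% of the length held 6, 39, 53, 69 and 35 summits. The members nearest to the 5′ end were the first peak of HSP90AA2P (7.63%) and RPS18P12 (12.3%), and that nearest to the 3′ end was EEF1A1P11 (99.8%). On the parent mRNAs, which extend into UTRs that most annotated copies do not cover, the median was 40.1%.

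**Figure D4:**
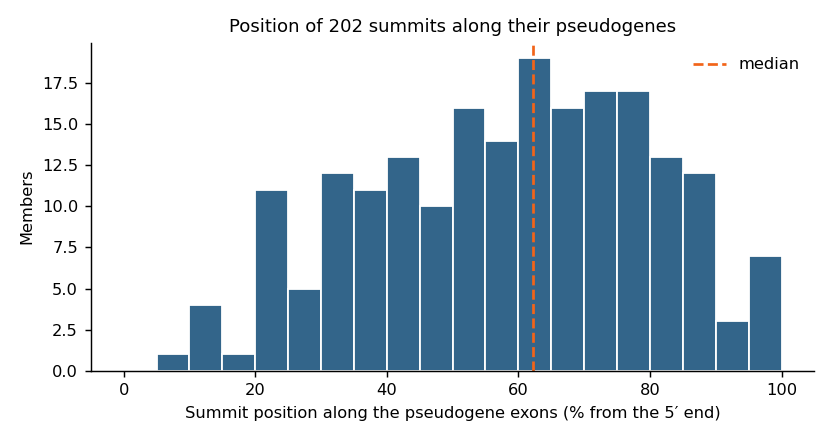
Number of members (vertical axis) by the position of the summit along the pseudogene exons, as percent of their length from the 5′ end in bins of 5 percentage points (horizontal axis), with the median of 62.2% as a dashed line. Only 6 of the 202 summits lay in the first 20%.

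The copies that carried a member were mostly closer in sequence to their parents than those without, though not always the closest. Of all processed pseudogenes that aligned to the same parents, 181 carried a member and 2206 did not. The median identity to the parent mRNA was 97.1% (quartiles 94.4% and 98.6%) with a member and 89.3% (85.2% and 92.7%) without. An identity of at least 95% was found in 125 (69.1%) of the former and 233 (10.6%) of the latter. The copies with a member were also longer, with a median of 639 against 477 bases. Where a parent had at least 2 processed copies, the most identical one carried a member for 105 of 132 parents (79.5%, 71.7% to 86.1%). With at least 5 copies it did for 84 of 104 (80.8%, 71.9% to 87.8%). Each of these parents has a copy with a member by the choice of parents, which raises both shares, and no expected share was computed. Most copies of a parent had no peak nonetheless. Of the 141 copies of RPL21 4 carried a member, of the 74 of HNRNPA1 2, of the 71 of RPL23A 1 and of the 46 of NPM1 3.

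**Figure D5:**
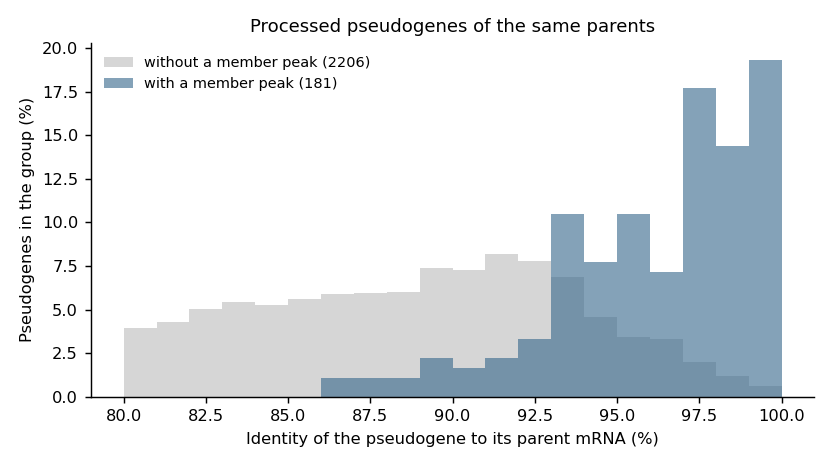
Identity to the parent mRNA (horizontal axis, percent) of processed pseudogenes of the same parents, as percent of the pseudogenes in each group (vertical axis), for 181 with a member peak and 2206 without. The group with a peak lies mostly above 94.4% and the group without mostly below 92.7%.

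The genome holds other sequences like most of the summit windows. At least 1 other place matched 163 of the members (80.7%, 74.6% to 85.9%) at 90% identity or more over 80% of the window. Over all 202 members, those without a match included, the median was 4 such places and the highest number 95. Identical windows elsewhere were found for 12. Such places existed for 10.6% of the MYC peaks with H3K27ac, 56.0% of those in later exons and 72.8% of the remainder. How reads with several possible places were treated is not given in the sources used here, and the part of such reads in the members was not tested.

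For 38 members (18.8%, 13.7% to 24.9%) the window matched a spliced mRNA while no other place in the genome matched it. Each of these windows spans a junction, as this combination requires where the parent's own exons would otherwise match. This holds for the criterion above, and 21 of the 38 matched another place when only 50 bases on either side of the summit were taken, ENSG00000226396 and HNRNPDP1 among them. The highest such members were RPL38P2 (12.02), RPL8P3 (10.5), NASPP1 (9.70), ENSG00000226396 (9.41) and HNRNPDP1 (9.34). ENSG00000226396 on chromosome 1 is a copy of the mRNA for the 40S protein RPS14. Its summit region chr1:19934891-19935011 is shown above the matching stretch of the spliced RPS14 mRNA (bases 323 to 443, coding sequence), with the 5 differing bases in capitals. Introns of RPS14 fall after base 28 and base 105 of this stretch.
ENSG00000226396: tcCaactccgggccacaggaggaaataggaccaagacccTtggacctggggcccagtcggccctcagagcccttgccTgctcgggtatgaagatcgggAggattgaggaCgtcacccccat
RPS14: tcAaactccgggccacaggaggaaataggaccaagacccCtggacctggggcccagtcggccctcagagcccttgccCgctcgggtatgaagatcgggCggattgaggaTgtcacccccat

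CACGTG was rare at the member summits. It lay within 50 bp of the summit on either strand, the motif being its own reverse complement, in 2 members (0.990%, 0.120% to 3.53%), in 25.4% of MYC peaks with H3K27ac (22.4% to 28.6%), and in 0.326% and 2.33% of the other classes without the mark. Those 2 were a peak of RPL3P7 at 6.32 and ENSG00000218227, a copy of RPL19, at 5.39. The summit with 50 bases on either side (chr6:108325933-108326033 and chr5:177482754-177482854, along the pseudogene) is given for each, with the motif in capitals.
RPL3P7: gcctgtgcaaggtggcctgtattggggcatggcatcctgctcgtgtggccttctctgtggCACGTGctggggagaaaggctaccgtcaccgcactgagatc
ENSG00000218227: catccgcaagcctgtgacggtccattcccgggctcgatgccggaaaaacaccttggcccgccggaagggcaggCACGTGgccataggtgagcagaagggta

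Anywhere in the peak, CACGTG occurred in 8 members (3.96%). At the promoters of the parents, 14 of the 92 with a MYC peak (15.2%, 8.58% to 24.2%) had CACGTG within 50 bp of a summit, among them NPM1, NME2, EIF4A1, EEF1B2 and YBX1. The member windows had a median GC content of 45.8%, against 68.2% for the MYC peaks with H3K27ac and 38.8% for those in later exons.

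The members lay in varied surroundings, given here as a description, since the distance to H3K27ac draws on the choice of members. The summit was in an intron of a protein-coding gene for 62 members, in an exon of one for 7, in the body of a long non-coding RNA gene only for 33 and in neither for 100. A TSS of a protein-coding gene was within 1000 bp of 5 members. The nearest H3K27ac peak was a median of 23824 bp away (22 to 961892 bp), and 141 members (69.8%) were over 10 kb from one. The choice of members by overlap turned on few cases. Just inside were RPS15P4, MORF4L1P1 and RPS2P46, at 22, 27 and 49 bp from an H3K27ac peak, with fold enrichments of 12.3, 7.67 and 3.82. Just outside were POU5F1P3, HNRNPA3P6 and RPS2P5, which shared 3, 39 and 61 bp with one, at 4.06, 4.85 and 4.43.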

How the data were processed

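MYC, input, H3K27ac and normal rabbit IgG were sequenced from HAP1 cells, 1 library each. Per the submitters' processing notes, the authors used Bowtie2 2.2.4 for alignment to hg19 and MACS2 2.1.1 for peak calling, which the study states was run at default parameters. The study also gives mapped and unique read totals without defining unique. By these totals MYC had fewer unique reads, and a smaller part of its mapped reads unique, than input, H3K27ac or IgG. The bearing of this on the members was not tested. A setting for multiply mapping reads is not given in the sources used here. The fold enrichment is the ratio at the summit over control, as deposited by the authors, and each peak also has a deposited −log10 p and −log10 q. Of the deposited columns, −log10 p and the score were left out. The peak lists hold no read counts.

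Peaks were read as deposited, and chromosome names were brought to 1 form. All ends lay within the GRCh37 chromosomes. GENCODE release 44 lifted to GRCh37 gave genes, exons and TSSs. Members were MYC peaks that shared no base with an H3K27ac peak and had their summit in an exon of a gene whose type contains pseudogene. Members and gene families were chosen with earlier results of these data known. The genes named were the 12 members with the highest fold enrichment, those with CACGTG within 50 bp, all members of parents with 3 or more, those outside processed types, the 3 lowest −log10 q, the 3 on either side of the overlap limit and leading members of each family, the last added after values were seen, as were single parents named for their own peaks.

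The exons of each pseudogene were joined and aligned with BLAST (2.17.0, word size 16) to the canonical spliced mRNA of every protein-coding gene. The parent was the gene with the highest summed bit score, at 80% identity or more over at least 100 bases. In simulated pseudogenes, 198 of 200 parents were recovered. The simulated stretches had a single length and substitution rate and came only from mRNAs longer than many ribosomal protein mRNAs. Shorter or more diverged copies were not simulated. The sequence of 1 summit window is not reported here. Windows of 100 and 50 bases on either side of all MYC summits were aligned to the genome and to the mRNAs. A junction counted if 10 bases of the window lay on each side. Python (3.11.15), numpy (2.4.6), pandas (2.3.3), scipy (1.17.1), pysam (0.24.0), samtools (1.23.1) and matplotlib (3.10.9) were used. Intervals are exact Clopper-Pearson 95% intervals. With 1 library per antibody no test between groups was made. The alternatives tried were a stricter −log10 q, other overlap and summit definitions, parents by symbol or at higher identity, other promoter and exon limits, and other windows.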

Additional observations from a re-analysis of the deposited data

How the results depend on the processing

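With 1 library of each kind, neither replicate spread nor the effect of leaving out a library could be measured. No paired analysis was possible because every group has 1 library. Of the 24 alternative values, 16 stayed within the counting interval of the reported value or within 1.5 times the reported count. At a −log10 q of at least 10, 106 of the 202 members were left, at a like share of processed types (97.2%) and of windows with a junction (97.1%). The median position of 62.2% became 40.1% when measured on the parent mRNA, which includes the UTRs. Parents taken from the pseudogene's symbol alone existed for 77.7% of members, and parents at 90% identity or more for 94.1%. Near-identical copies existed for 54.5% of members at 95% identity and for 89.6% with windows of 50 bases on either side, against 80.7%. CACGTG was in 3.96% of whole peaks, and the smaller window spanned a junction in 66.8% of placed members. The share of parents with a promoter peak ranged from 54.8% (canonical TSS only) to 63.0%, and that with a peak in a later exon was 43.2% when every exon but the first was counted. Shares of pseudogenes depend on the annotation, and read depth, which limits which copies could be called, is not in the peak lists.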

Other observations

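The X chromosome held 19 of the 187 pseudogenes with a member (10.2%), and 6.76% of all processed pseudogenes in the annotation. Chromosome 1 held 10.7% of the pseudogenes with a member, against 8.71% of processed pseudogenes. The shares with a member count all types of pseudogene, and these differences, on small counts, were not tested.

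The 202 members had 161 distinct fold enrichments, and 71 members shared theirs with another member. The value 9.79 occurred 5 times, in RPS24P19, ENSG00000242951 and YBX1P10 among others.

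CTD-2328D6.1 on the X chromosome (108297362 to 108297777) had a fold enrichment of only 3.29 with a −log10 q of 37.0, the second highest −log10 q of all members after RPS18P5 (38.1). No protein-coding mRNA aligned to it, and 2 other places in the genome matched its summit window.

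Of the 13 MYC peaks in pseudogene exons that overlapped H3K27ac, the 3 highest were in PTMAP2 (14.3), HMGB1P5 (11.5) and ENSG00000244313, an RPS10 copy (10.6), and 2 had CACGTG within 50 bp of the summit, in C19orf48P and RPL10AP6.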
